A study of Homo sapiens with 15 samples.

Results

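The genes described here are 6 cadherins (CDH1, CDH2, CDH3, CDH4, CDH11, and CDH13) and 3 catenins (CTNNB1, CTNND1, and CTNNA1), picked by symbol from a table of 19612 gene symbols. All 9 were in the table, and 6 of them had enough counts to be tested. The table covers 15 RNA sequencing libraries of lung adenocarcinoma cells, 3 for each of 5 conditions. Samples 1a to 1c are vehicle-treated H1975 cells, a line that carries the EGFR alleles L858R and T790M. Samples 2a to 5c are H1975-OR cells, a subline of H1975 with the same alleles that was made resistant to the EGFR inhibitor osimertinib by growing it in the drug, and that was kept in 500 nM osimertinib between experiments. Whether H1975-OR is a single clone is not given in the sources used here. H1975-OR cells were given vehicle in Samples 2a, 2b, and 2c. Samples 3a, 3b, and 3c received 100 nM 1,25(OH)2D3, which is the active hormone made from vitamin D3. Osimertinib at 500 nM went to Samples 4a, 4b, and 4c, and Samples 5a, 5b, and 5c were treated with the hormone and osimertinib together, called both agents here. All cells were treated for 96 h in medium with charcoal-stripped serum, with doses at 0, 48, and 92 h, so the vehicle arm of H1975-OR had been dosed without osimertinib for that time. The cells of the H1975, vehicle, and 1,25(OH)2D3 arms came from 3 separate passages, and p-values measure the spread between such cultures of 1 line and its subline. The study left out Sample 3a because clustering and principal component analysis set its expression apart from its treatment group and cell line. Sample 3a was also left out of each test here, and its values are given beside the others.

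Cadherins are membrane proteins that join neighboring cells through calcium-dependent contacts of their outer parts. In the adherens junction, the cytoplasmic tail of a classical cadherin binds beta-catenin, which binds alpha-catenin, which in turn meets the actin cytoskeleton, while delta-catenin binds the tail close to the membrane and holds the cadherin at the cell surface. CDH1 (E-cadherin) is the main cadherin of epithelia, CDH3 (P-cadherin) is found in basal layers of epithelia and in many carcinomas, CDH2 (N-cadherin) in nerve and mesenchyme, CDH4 (R-cadherin) in retina and other neural tissue, and CDH11 (OB-cadherin) in bone-forming and other mesenchymal cells. CDH13 (T-cadherin) is held in the membrane by a lipid anchor and has no tail for catenins, so it is a cadherin by its outer domains but not a classical one. Loss of CDH1 and gain of CDH2 is a pattern known from epithelial-mesenchymal transition. CTNNB1 encodes beta-catenin, which also acts in the nucleus with TCF factors under Wnt signaling. CTNND1 encodes the delta-catenin meant here, also known as p120-catenin, and CTNNA1 encodes alpha-catenin.

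Estimated counts summed to between 4378030 and 6140120 per library. Levels are given as CPM, a gene's counts scaled to a common library total with TMM factors. The floor of 3 counts lay between 0.476 and 0.707 CPM and covers counting error only. CYP24A1, a direct target of the vitamin D receptor, stood between 676 and 1469 CPM in the 6 libraries given 1,25(OH)2D3 and between 3.31 and 25.6 CPM in the other 9. Of 8 markers of lung adenocarcinoma epithelium, 7 were above the floor in every H1975 library and 6 in every vehicle-treated H1975-OR library, while SFTPC never exceeded 0.826 CPM. The 8 summed to between 4488 and 5551 CPM in H1975 and between 3593 and 3929 CPM in H1975-OR with vehicle, and they did not all move one way. EPCAM, an epithelial adhesion molecule, had means of 151 and 11.6 CPM, KRT7 of 1458 and 526 CPM, and KRT19 of 1143 and 339 CPM in these groups. KRT18 had means of 1896 and 2441 CPM, KRT8 of 464 and 439 CPM, and NKX2-1 of 44.8 and 56.3 CPM. The 5 fibroblast markers summed to between 2.73 and 6.57 CPM in H1975 and between 11.9 and 53.8 CPM in the H1975-OR groups. The highest sum was that of Sample 3a, and the other libraries had at most 41.2 CPM. THY1 was at no more than 0.471 CPM throughout. Between H1975 and H1975-OR with vehicle, PDGFRB carried this sum, with means of 3.34 and 21.0 CPM, and LUM had 0 and 2.39 CPM. The means of PDGFRA, DCN, and THY1 stayed under 1 CPM in both. The leukocyte markers CD3E and MS4A1 were at 0 in all 15 libraries, and CD14 was highest in Sample 3a, at 50.8 CPM. In bulk RNA, fewer cells that express a gene and less of its RNA per cell cannot be told apart.

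CDH1 mRNA was nearly lost in H1975-OR and returned in each arm given 1,25(OH)2D3, whereas CTNNB1 was lower in H1975-OR and the other 4 tested genes passed no test. Samples 1a, 1b, and 1c of H1975 had CDH1 levels of 108, 238, and 383 CPM. Samples 2a, 2b, and 2c of H1975-OR with vehicle had 9.40, 6.20, and 5.20 CPM. Samples 3a, 3b, and 3c, given 1,25(OH)2D3, had 106, 108, and 151 CPM. The libraries with the hormone all lay above those with vehicle. Samples 3b and 3c lay within the range of H1975, Sample 3b at its lower edge (107.7 CPM, against 107.6 CPM in Sample 1a). Osimertinib alone left CDH1 at 6.65, 4.91, and 2.45 CPM in Samples 4a, 4b, and 4c. Both agents gave 67.9, 44.4, and 39.6 CPM in Samples 5a, 5b, and 5c. All 6 libraries given 1,25(OH)2D3 thus lay above all 6 H1975-OR libraries without it, and those with both agents lay below those with 1,25(OH)2D3 alone.

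**Figure D1:**
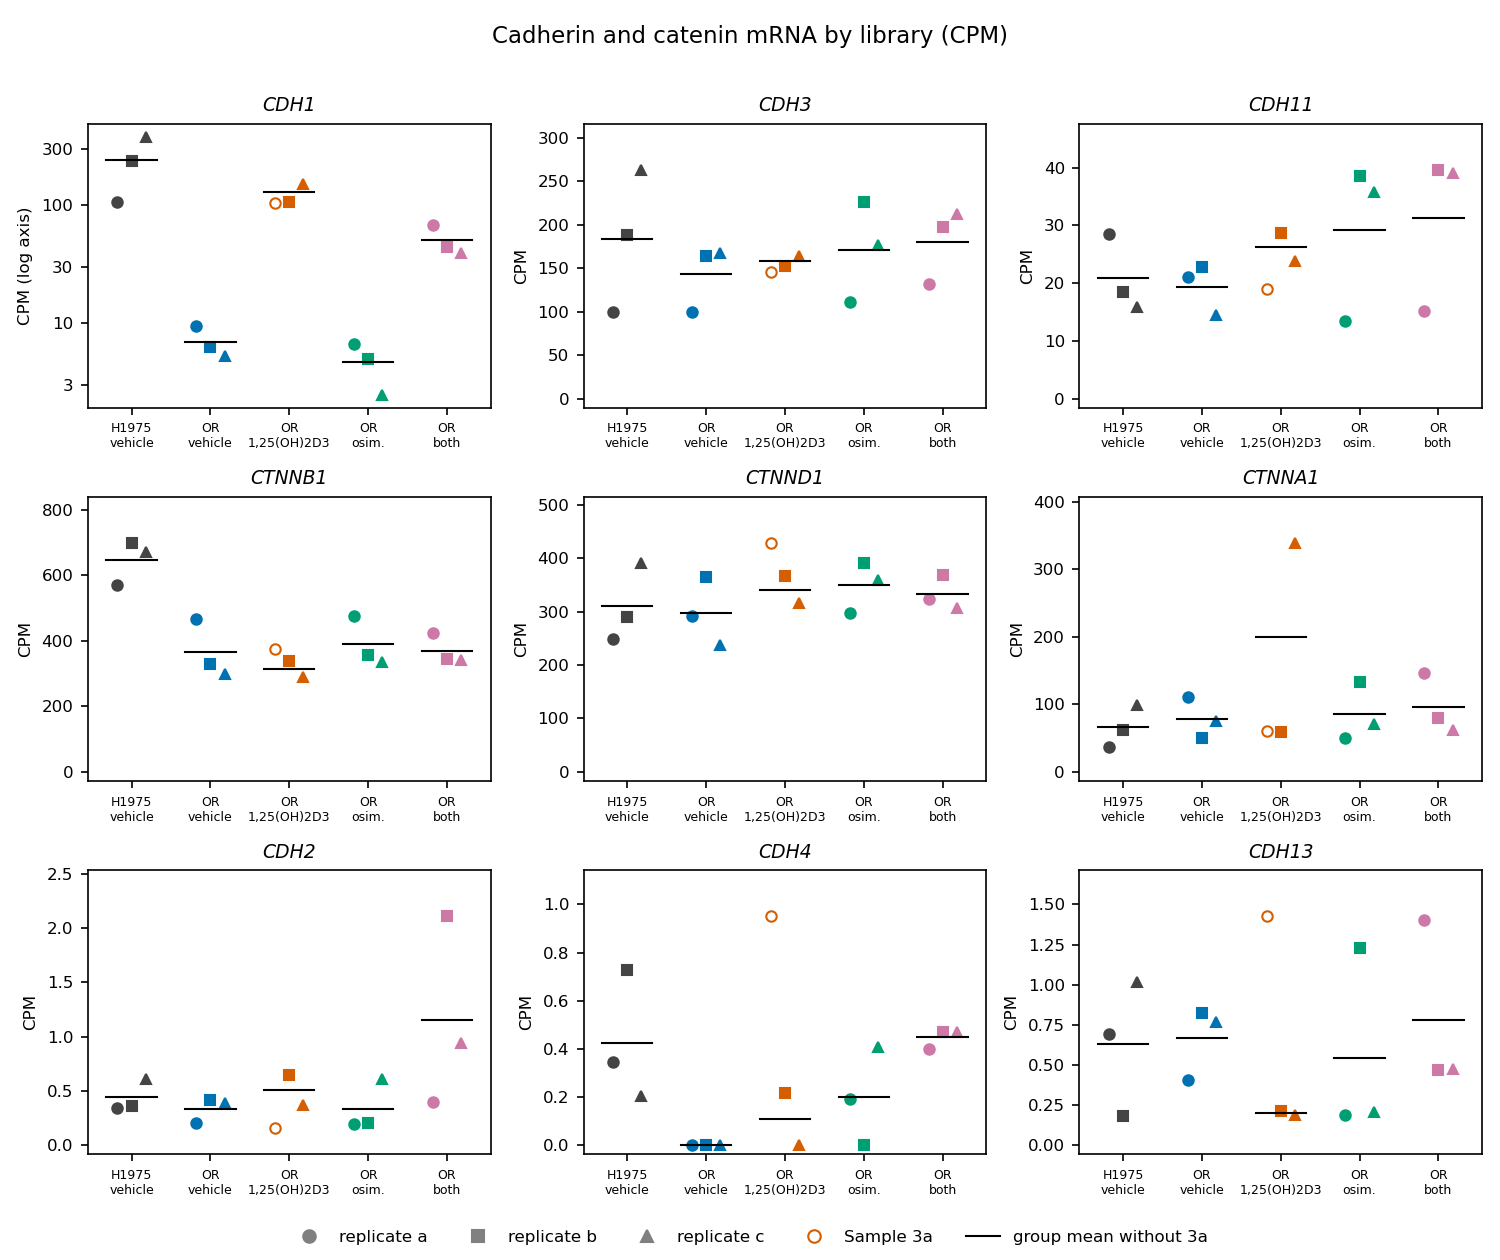
Levels of the 9 genes in CPM by library, with a log axis for CDH1 and linear axes for the others; symbols mark the replicate letters, lines the group means without Sample 3a, and the open circle Sample 3a. CDH1 falls from between 108 and 383 CPM in H1975 to between 5.20 and 9.40 CPM in vehicle-treated H1975-OR (OR), while CDH3, CDH11, and CTNND1 overlap between these groups.

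In H1975-OR against H1975, both with vehicle, 2 of the 6 tested genes passed, both lower, against 20.1% of the 12513 genes tested. The mean of CDH1 was 243 ± 138 CPM in H1975 and 6.93 ± 2.19 CPM in H1975-OR (SD, n = 3 each), 34.6-fold lower. Its log2 fold change was −5.11 (SE 0.50, 95% interval −6.25 to −3.98, edgeR adjusted p = 0.000557). The mean of CTNNB1 was 647 ± 68.7 CPM in H1975 and 365 ± 90.0 CPM in H1975-OR (SD, n = 3 each), 1.75-fold lower. Its log2 fold change was −0.81 (SE 0.18, 95% interval −1.21 to −0.41, edgeR adjusted p = 0.0143). The median log2 fold change was −0.22 over the 6 genes and 0.01 over all genes tested. The call of CTNNB1 was lost without Sample 1b (edgeR adjusted p = 0.0521) or without Sample 2b (edgeR adjusted p = 0.0584), and that of CDH1 with no library. By the means given above, EPCAM, KRT7, and KRT19 were lower in H1975-OR, KRT8 differed little, and KRT18 and NKX2-1 were higher. Of the fibroblast markers, PDGFRB and LUM were higher, while PDGFRA, DCN, and THY1 stayed low in both groups. The part of these markers in these results was not tested.

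With 1,25(OH)2D3 in H1975-OR, CDH1 alone of the 6 passed, higher, against 0.152% of the 12513 genes tested. It rose to 130 ± 30.9 CPM (SD, n = 2), with a log2 fold change of 4.22 (SE 0.51, 95% interval 3.07 to 5.39, edgeR adjusted p = 0.024), or 18.7-fold. Sample 3a, which had no part in this test, was above every vehicle library in CDH1. The same held, at over 3 counts, for 4 of the 9 genes, against 31.2% of the 17331 genes with a count in any library. Set against the vehicle library that shares its letter, each library differed in CDH1 by a log2(CPM + 2) value of 3.24 for letter a, 3.74 for letter b, and 4.41 for letter c. The call was lost when Sample 1b, 2a, 2b, 2c, 3b, or 3c was left out of the 8 libraries, with an edgeR adjusted p between 0.0593 and 0.0977 in those 6 fits, while the log2 fold change stayed between 3.96 and 4.51. It was also lost with the replicate letter as a block, where the log2 fold change was 3.95 (edgeR adjusted p = 0.133), although the letters are not shown to pair these 2 groups.

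Osimertinib alone gave no call among the 6 genes by edgeR or by DESeq2, against 0.048% of the 12503 genes tested by edgeR, and none of the 6 had an unadjusted p under 0.05. CDH1 was at 4.67 ± 2.11 CPM (SD, n = 3), with a log2 fold change of −0.55 against vehicle (95% interval −1.42 to 0.31, edgeR adjusted p = 0.848). The log2(CPM + 2) difference of CDH1 from the vehicle library that shares the letter was −0.40 for letter a, −0.25 for letter b, and −0.69 for letter c, so that CDH1 was lower with osimertinib in 3 of 3 pairs by an amount that did not pass the test. The labels do not say whether these letters pair the samples. With the replicate letter as a block, 35 of all genes passed in place of 6, none of them among the 6 tested here.

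With both agents against osimertinib alone, CDH1 was again the 1 gene of the 6 that passed, against 0.096% of the 12503 genes tested. It rose to 50.6 ± 15.1 CPM (SD, n = 3), with a log2 fold change of 3.42 (SE 0.38, 95% interval 2.59 to 4.26, edgeR adjusted p = 0.00929), or 10.7-fold. By letter, the log2(CPM + 2) difference was 3.01 for a, 2.75 for b, and 3.22 for c. Against vehicle, both agents raised CDH1 by 2.86 on the log2 scale (SE 0.36, 95% interval 2.07 to 3.67, edgeR adjusted p = 0.012), or 7.28-fold, with no other of the 6 genes passing, against 0.496% of all genes tested. The differences by letter were 2.62, 2.5, and 2.53 for letters a, b, and c. The first call was lost without Sample 4b (edgeR adjusted p = 0.0761) and in a fit of the 2 compared groups alone (edgeR adjusted p = 0.103). The second was lost without Sample 2b (edgeR adjusted p = 0.0904), without Sample 2c (edgeR adjusted p = 0.0905), and in the 2 groups alone (edgeR adjusted p = 0.051). With the replicate letter as a block, 33 of all genes passed in place of 12 in the first comparison and 461 in place of 62 in the second, and CDH1 remained the only gene of the 6 in each.

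Whether 1,25(OH)2D3 acted differently with and without osimertinib was tested as the difference between its effects. None of the 6 genes passed by edgeR or DESeq2, and none had an unadjusted p under 0.05 in the main edgeR fit. By edgeR, 0 of 12503 genes (0%) passed, with 330 at an unadjusted p under 0.05, and DESeq2 called 11. For CDH1, the rise was smaller with osimertinib by 0.81 on the log2 scale, with an interval from −1.97 to 0.36 (edgeR adjusted p = 1). With the replicate letter as a block, this difference for CDH1 was −1.09 (edgeR unadjusted p = 0.0141, adjusted p = 0.97). In letters b and c alone it was −1.01 (edgeR unadjusted p = 0.0615). The comparisons of 1,25(OH)2D3, osimertinib, and both agents with vehicle share the vehicle libraries.

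**Figure D2:**
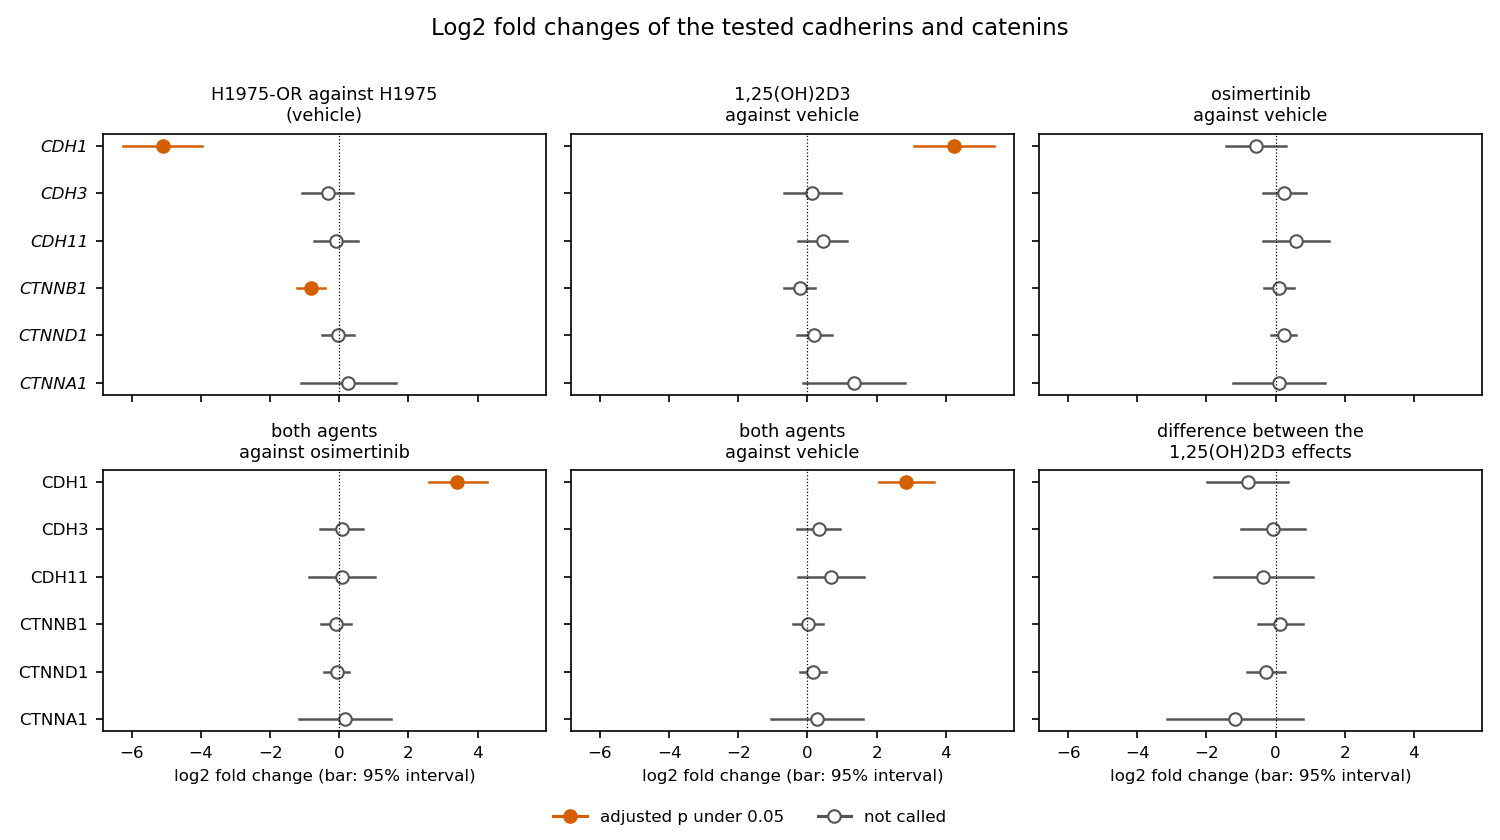
Log2 fold changes of the 6 tested genes in 6 comparisons, with 95% intervals as bars; filled orange points have an adjusted p under 0.05. CDH1 is called in 4 of the 6 comparisons and CTNNB1 in 1, and the intervals of the other 4 genes include 0 in each.

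The levels of CDH1 were ordered H1975, 1,25(OH)2D3, both agents, vehicle, and osimertinib, with means of 243, 130, 50.6, 6.93, and 4.67 CPM. In one fit of the 14 libraries other than 3a, 1 pair of neighbors in this order passed the test, both agents and vehicle (edgeR adjusted p = 0.0196). H1975 and H1975-OR with 1,25(OH)2D3 overlapped, with a log2 fold change of −0.90 (95% interval −1.88 to 0.07, edgeR adjusted p = 0.187). 1,25(OH)2D3 alone and both agents did not overlap, with a log2 fold change of −1.35 for both agents (95% interval −2.31 to −0.40), but did not pass the adjustment over all genes (edgeR adjusted p = 0.226). Vehicle and osimertinib overlapped (edgeR adjusted p = 0.874). Both agents left CDH1 below H1975, by 2.26 on the log2 scale (95% interval −3.16 to −1.36 as a fold change, edgeR adjusted p = 0.00195). Over all 10 pairs of conditions, 11 of the 60 tests of the 6 genes passed, 7 of CDH1 and 4 of CTNNB1, against 9.07% of the tests of all genes.

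CDH3 lies beside CDH1 on the plus strand of chromosome 16, with 9.82 kb between the end of CDH3 and the start of CDH1 (CDH3, chr16:68636189-68727468; CDH1, chr16:68737292-68835537; GRCh38, GENCODE release 44). CDH3 passed in no comparison. CDH3 stood at 100.0, 188, and 263 CPM in Samples 1a, 1b, and 1c, and at 99.5, 164, and 167 CPM in Samples 2a, 2b, and 2c. Samples 3a, 3b, and 3c, given 1,25(OH)2D3, had CDH3 at 146, 153, and 164 CPM. All 3 of these lie within the range of the vehicle libraries. With osimertinib it lay between 112 and 226 CPM and with both agents between 132 and 212 CPM. Its log2 fold changes lay between −0.34 and 0.32, and that of H1975-OR against H1975 was −0.34 (95% interval −1.08 to 0.40, edgeR adjusted p = 0.507). 4 of the 9 genes are on chromosome 16, the others being CDH11 (chr16:64943753-65126112, minus strand) and CDH13 (chr16:82626965-83800640, plus strand).

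CDH11 was, with CDH1 and CDH3, one of the 3 of these 6 cadherins above 3 counts in every library. It lay between 15.8 and 28.5 CPM in H1975, between 14.4 and 22.7 CPM in H1975-OR with vehicle, and between 19.0 and 28.8 CPM with 1,25(OH)2D3. With osimertinib it stood at 13.5, 38.7, and 35.7 CPM in Samples 4a, 4b, and 4c, and with both agents at 15.2, 39.7, and 39.1 CPM in Samples 5a, 5b, and 5c. Letters b and c thus lay above every library without osimertinib, and letter a did not. The log2 fold change of osimertinib against vehicle was 0.60 (95% interval −0.36 to 1.56, edgeR adjusted p = 0.852).

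CDH2, CDH4, and CDH13 were barely detected and did not pass the filter on low counts. CDH2 had between 1 and 9 counts per library, the highest, 2.11 CPM, in Sample 5b given both agents. In vehicle-treated H1975-OR, CDH2 was at 0.204, 0.413, and 0.385 CPM, all at or under the floor, and in H1975 it was at 0.346, 0.364, and 0.610 CPM. A difference in CDH2 between H1975-OR and H1975 was not detectable at this depth, and no fold was computed. CDH4 had between 0 and 6 counts and was at 0 in all 3 vehicle-treated H1975-OR libraries, which allows up to 0.620 CPM. CDH13 had between 1 and 9 counts. The highest values of CDH4 and CDH13 were in Sample 3a, at 0.952 and 1.43 CPM.

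Set on a scale per length (CPM per kb of the canonical transcript), CDH1 and CDH3 made up most of the summed level of the 6 cadherins chosen here, and their shares of it differed between conditions. Other cadherins are outside this sum, among them CDH24, with means of 7.12 CPM per kb in H1975, 11.8 with vehicle, 8.11 with 1,25(OH)2D3, 16.9 with osimertinib, and 12.9 with both agents. In H1975, CDH1 made up 45.4%, 52.3%, and 56.3% of the summed level of the 6 cadherins in Samples 1a, 1b, and 1c, and CDH3 between 41.8% and 45.6%. In vehicle-treated H1975-OR, CDH1 made up 7.09%, 3.08%, and 2.64% in Samples 2a, 2b, and 2c, and CDH3 between 81.2% and 91.6%. The share of CDH1 with 1,25(OH)2D3 was 38.0%, 36.6%, and 43.7% in Samples 3a, 3b, and 3c. With osimertinib it was between 1.12% and 4.84%, and with both agents 30.5%, 15.3%, and 13.3% in Samples 5a, 5b, and 5c. CDH11 made up between 1.67% and 11.7% and CDH2 at most 0.874% in any library. The summed level was 95.1 ± 46.0 CPM per kb in H1975 (SD, n = 3), ranging from 49.3 in Sample 1a to 141 in Sample 1c, and 36.8 ± 8.01 CPM per kb in vehicle-treated H1975-OR (SD, n = 3). The ratio of CDH1 to CDH3 per kb was 1.17 ± 0.18 in H1975 (SD, n = 3), 0.0504 ± 0.0322 with vehicle (SD, n = 3), 0.754 ± 0.142 with 1,25(OH)2D3 (SD, n = 2), 0.0294 ± 0.0226 with osimertinib (SD, n = 3), and 0.286 ± 0.166 with both agents (SD, n = 3). These shares are a description of the same counts and were not tested.

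**Figure D3:**
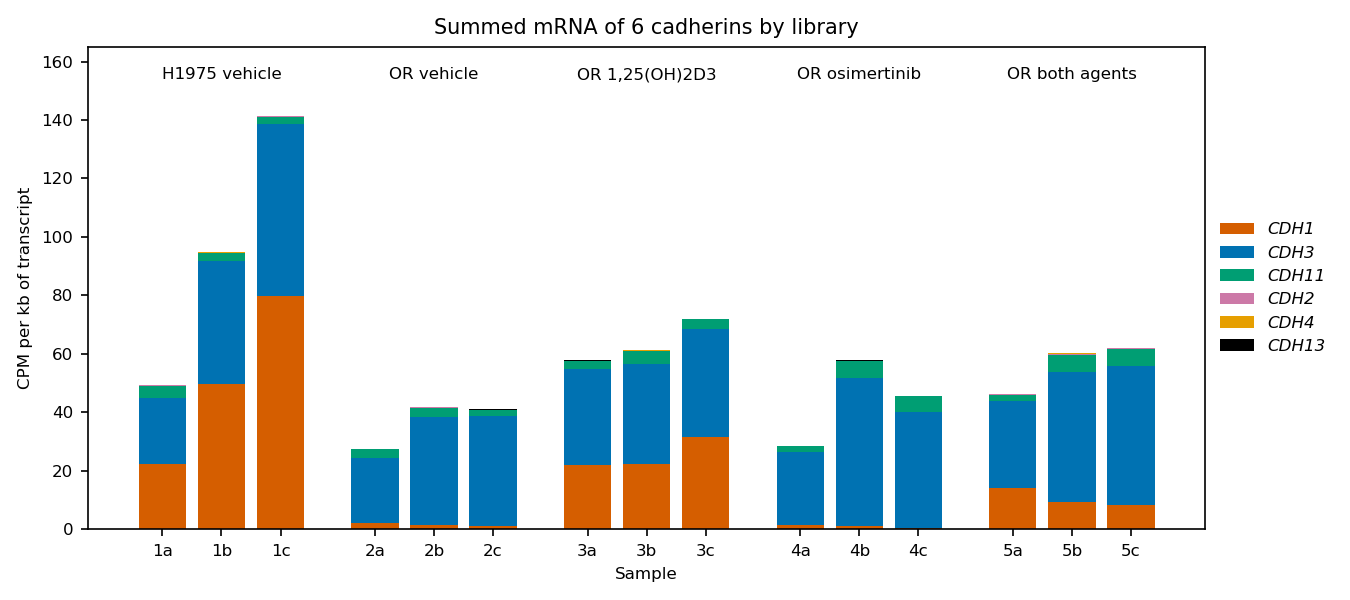
Stacked bars of the level of 6 cadherins per kb of transcript, 1 bar per library from 0. CDH1 makes up 45.4% to 56.3% of the bar in H1975 and 2.64% to 7.09% in vehicle-treated H1975-OR (OR), where CDH3 makes up 81.2% to 91.6%.

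Among the catenins, CTNNB1 stood at 569, 699, and 673 CPM in Samples 1a, 1b, and 1c, and at 467, 328, and 299 CPM in Samples 2a, 2b, and 2c, with no overlap. It stayed between 290.3 and 475 CPM in the libraries of the 3 treated H1975-OR groups. In the fit of 14 libraries, CTNNB1 was lower in each of the 4 H1975-OR groups than in H1975, with log2 fold changes between −1.04 and −0.73 and edgeR adjusted p between 0.00534 and 0.0128. No pair among the H1975-OR groups passed. Its log2 fold change with 1,25(OH)2D3 was −0.22 (95% interval −0.67 to 0.23, edgeR adjusted p = 0.882), beside the 4.22 of CDH1. Per kb, the level of CTNNB1 was 1.30 to 3.16 times that of the 6 cadherins together in H1975 and 1.10 to 4.64 times in H1975-OR.

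CTNND1 lay between 249 and 391 CPM in H1975, between 237 and 365 CPM in H1975-OR with vehicle, and between 297 and 391 CPM with osimertinib. It stood at 429 CPM in Sample 3a, the highest of the 15 libraries in CTNND1, and at 367 and 316 CPM in Samples 3b and 3c. Its log2 fold changes lay between −0.27 and 0.23 and none passed. The interval of H1975-OR against H1975 was −0.50 to 0.42 on the log2 scale.

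CTNNA1 varied most among replicates of the catenins. It stood at 37.5, 62.4, and 99.4 CPM in H1975, and at 111, 50.4, and 75.3 CPM in vehicle-treated H1975-OR. Samples 3a, 3b, and 3c, given 1,25(OH)2D3, had CTNNA1 at 60.1, 59.0, and 339 CPM. Sample 3c alone sets the log2 fold change of 1.34 with 1,25(OH)2D3 (95% interval −0.14 to 2.82, edgeR adjusted p = 0.716), which is −0.41 without it. Between 50.0 and 146 CPM were found in the 6 libraries given osimertinib, and no comparison passed.

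The replicate letters separated some of the genes within H1975-OR. Leaving out Sample 3a, CDH3 was between 99.5 and 132 CPM in the 3 libraries of letter a and between 153 and 226 CPM in the 8 of letters b and c. CTNNB1 went the other way, between 424 and 475 CPM in letter a and between 290.3 and 358 CPM in letters b and c. These 2 of the 6 tested genes did not overlap between letter a and the other letters, against 13.2% of the 12503 genes tested. Nothing is read from this count. The ranges of CDH1 overlapped. Within letters b and c alone, the log2 fold change of CDH1 was 4.50 with 1,25(OH)2D3 (edgeR adjusted p = 0.00821), 3.49 with both agents against osimertinib (edgeR adjusted p = 0.0247), and 2.87 with both agents against vehicle (edgeR adjusted p = 0.0114), an alternative added after the data had been seen.

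**Figure D4:**
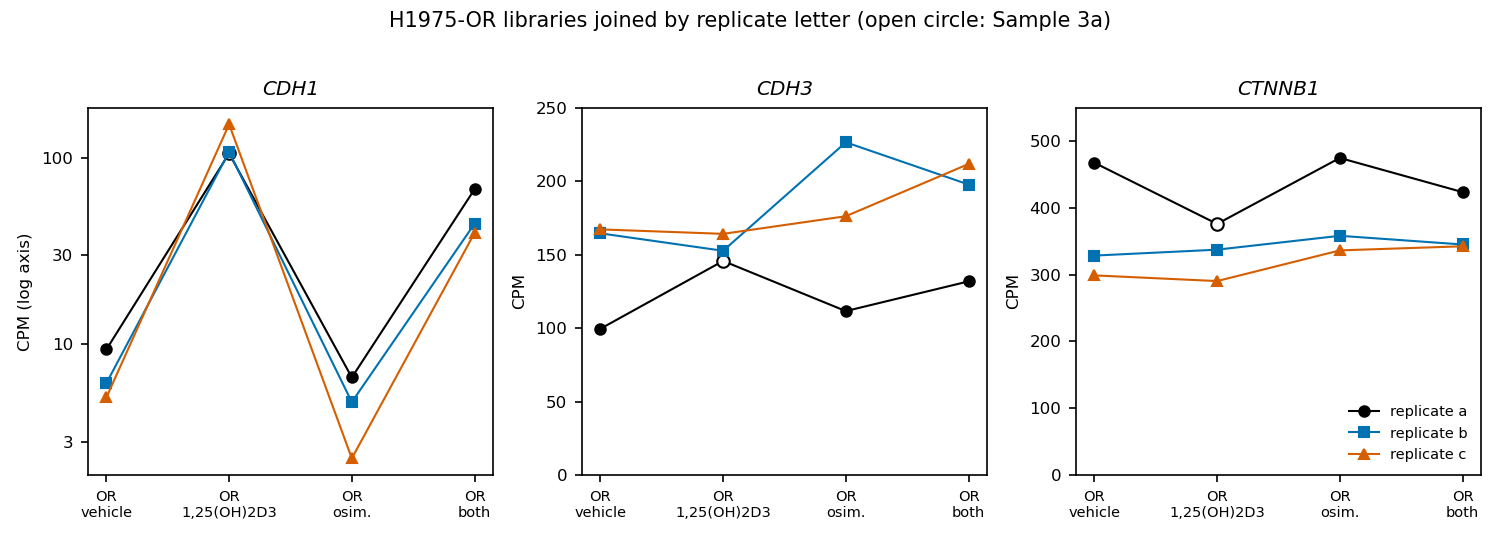
CPM of CDH1 (log axis), CDH3, and CTNNB1 in the 4 H1975-OR (OR) groups, with lines joining libraries of the same replicate letter and an open circle for Sample 3a. CDH1 rises with 1,25(OH)2D3 in each letter, while CDH3 is lowest and CTNNB1 highest in letter a.

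The genes around these proteins were followed in 8 lists of 74 genes, of which 50 were tested in each comparison of H1975-OR. Between H1975-OR and H1975, 4 were higher and 6 lower, 20.1% being the share of all genes tested. In the other 5 comparisons none passed by edgeR. Of 7 transcription factors known to repress CDH1, 5 were tested, and they moved in both directions between H1975-OR and H1975. ZEB2 rose from 6.60 ± 1.32 to 32.4 ± 3.06 CPM (SD, n = 3 each), with a log2 fold change of 2.30 (edgeR adjusted p = 0.00048), and ZEB1 from 3.72 ± 3.83 to 30.7 ± 20.9 CPM (SD, n = 3 each), with a log2 fold change of 3.02 (edgeR adjusted p = 0.0318). SNAI2 fell by 1.15 (edgeR adjusted p = 0.0153) and SNAI1 by 0.79 on the log2 scale (edgeR adjusted p = 0.0497). TWIST1 and TWIST2 were listed at 0 in every library, and the median of the 5 tested was −0.06. The calls of ZEB1 and SNAI1 were lost without either Sample 1b, 1c, 2b, or 2c, that of SNAI1 also without Sample 2a, 3b, or 3c, and that of SNAI2 without Sample 1b, with edgeR adjusted p up to 0.108, 0.151, and 0.0612 for ZEB1, SNAI1, and SNAI2. The log2 fold change of ZEB1 was 4.30 without Sample 1a and 2.44 without Sample 2b. Its call was also lost with the replicate letter as a block (edgeR adjusted p = 0.0893) and with Sample 3a kept (edgeR adjusted p = 0.0553). In the fit of 14 libraries, SNAI2 and SNAI1 lost their calls (edgeR adjusted p = 0.0835 and 0.119). SNAI1 also lost it with the block, with Sample 3a kept, without the filter, and in the 2 groups alone (edgeR adjusted p between 0.065 and 0.0774).

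With 1,25(OH)2D3, where CDH1 rose, ZEB2 stood at 32.4 ± 0.36 CPM (SD, n = 2), close to the 32.4 ± 3.06 CPM of vehicle. SNAI1 had the lowest p of the repressors there, with a log2 fold change of −0.27 (edgeR adjusted p = 0.901), followed by ZEB1 with −0.64 (edgeR adjusted p = 0.915). ZEB1 was at 11.8 CPM in Sample 3b and 27.3 CPM in Sample 3c, within the 9.40 to 51.2 CPM of the vehicle libraries, and at 4.28 CPM in Sample 3a.

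Nectins are adhesion molecules of the immunoglobulin family that assemble with cadherins at the junction, and AFDN (afadin) ties them to actin. All 5 genes of this list were tested between H1975-OR and H1975, where 1 rose and 3 fell. NECTIN3 rose from 29.9 ± 2.75 to 95.3 ± 18.4 CPM (SD, n = 3 each), with a log2 fold change of 1.69 (edgeR adjusted p = 0.000649). NECTIN4 stood at 5.54, 11.5, and 33.1 CPM in Samples 1a, 1b, and 1c, and at 1.02, 1.03, and 0.770 CPM in Samples 2a, 2b, and 2c, a log2 fold change of −4.10 (edgeR adjusted p = 0.0108). Without Sample 1c it was −3.15, the smallest change with any library left out, and without Sample 1a it was −4.53, the largest. NECTIN1 fell by 0.98 (edgeR adjusted p = 0.0357) and AFDN by 0.64 on the log2 scale (edgeR adjusted p = 0.0385), and these calls were lost when any of 6 and 7 of the 8 libraries was left out, with edgeR adjusted p up to 0.104 and 0.11. Both calls were also lost in the 2 groups alone (edgeR adjusted p = 0.0558 and 0.0592). AFDN lost its call with Sample 3a kept (edgeR adjusted p = 0.066) and with the replicate block (edgeR adjusted p = 0.067). With 1,25(OH)2D3, NECTIN4 had a mean of 0.844 ± 0.931 CPM (SD, n = 2), and NECTIN1 had the lowest p of the list, with a log2 fold change of 0.77 (edgeR adjusted p = 0.605).

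Of 17 other cadherins, 14 did not pass the filter on low counts between H1975-OR and H1975. CDH24 rose from 24.3 ± 4.36 to 40.2 ± 1.81 CPM (SD, n = 3 each), with a log2 fold change of 0.74 (edgeR adjusted p = 0.0209). Its call was lost without Sample 1a, 1c, 2b, or 2c (edgeR adjusted p up to 0.058) and with Sample 3a kept (edgeR adjusted p = 0.0709). Of 8 proteins that link the junction to actin, 7 were tested and LIMA1, which binds alpha-catenin, fell from 464 ± 26.3 to 222 ± 41.0 CPM (SD, n = 3 each), with a log2 fold change of −1.05 (edgeR adjusted p = 0.00196). LIMA1 with 1,25(OH)2D3 had a log2 fold change of −0.58 against vehicle (edgeR adjusted p = 0.444). VASP of the same list had at most 0.743 CPM in any library, and whether such low values reflect the cells or the counting was not tested. None of the 5 tested catenin paralogs passed. CTNNA2 had the lowest p of them, with a log2 fold change of 2.48 (edgeR adjusted p = 0.0645). Its means were 0.359 CPM in H1975, near the floor, and 2.13 CPM in H1975-OR with vehicle. JUP (plakoglobin), which can take the place of beta-catenin at the cadherin tail, had a log2 fold change of −0.35 (edgeR adjusted p = 0.416).

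None of 9 genes for the shedding and turnover of cadherins, 10 or 11 tested genes that degrade beta-catenin or bind it in the nucleus, or 6 tested targets of beta-catenin and TCF passed in any comparison. In the last list, ZNRF3, which lowers Wnt receptors at the cell surface, had the lowest p between H1975-OR and H1975, with a log2 fold change of −0.56 (edgeR adjusted p = 0.0765), and 5 of its 11 genes did not pass the filter on low counts. Between both agents and vehicle, ZYX (zyxin), an actin linker, had the lowest p of the 50 genes, with a log2 fold change of −0.80 (edgeR adjusted p = 0.082).

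**Figure D5:**
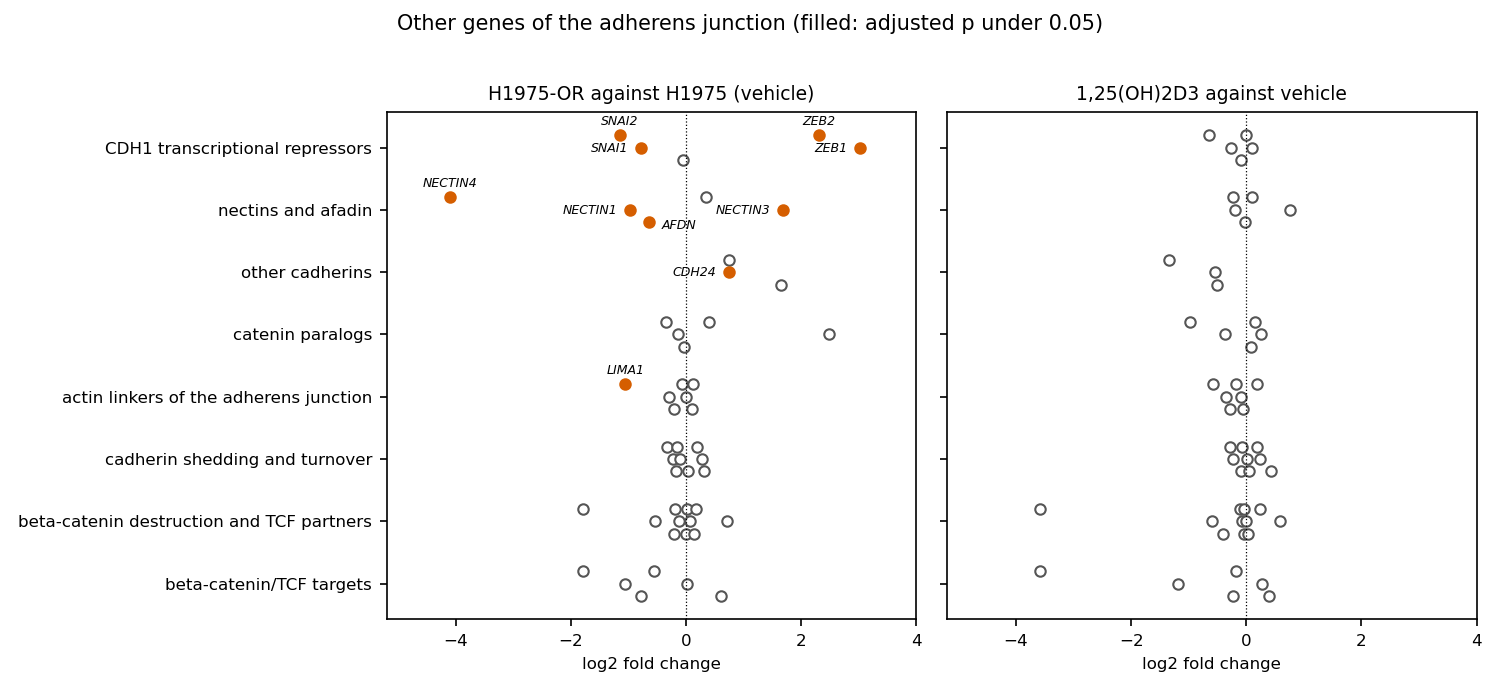
Log2 fold changes of the tested genes of 8 lists around the junction, for H1975-OR against H1975 and for 1,25(OH)2D3 against vehicle; filled orange points have an adjusted p under 0.05. Of 50 genes, 4 higher and 6 lower are called on the left, and none on the right.

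Of the genes tested in the 14 libraries, those with the profile most like that of CDH1 were FN1, LAMB3, C15orf48, SLC37A2, and MELTF. The measure was the mean absolute difference between log2(CPM + 2) values, each centered on its gene's mean, and it was 0.96 for FN1 and between 1.03 and 1.08 for the other 4. CDH1's own mean deviation was 1.90, so even the nearest profiles differed from it by about 0.96 per library. FN1 (fibronectin, a matrix protein) was at 711 ± 227 CPM in H1975 (SD, n = 3), 56.1 ± 8.08 CPM with vehicle (SD, n = 3), 145 ± 27.8 CPM with 1,25(OH)2D3 (SD, n = 2), 77.9 ± 15.8 CPM with osimertinib (SD, n = 3), and 155 ± 59.3 CPM with both agents (SD, n = 3). MELTF, a membrane transferrin homolog, was at 61.4 ± 19.2 CPM in H1975 (SD, n = 3), 17.0 ± 6.81 CPM with vehicle (SD, n = 3), 108 ± 14.2 CPM with 1,25(OH)2D3 (SD, n = 2), 19.3 ± 14.3 CPM with osimertinib (SD, n = 3), and 96.3 ± 36.4 CPM with both agents (SD, n = 3). The means of FN1 and MELTF were higher with osimertinib than with vehicle, whereas that of CDH1 was lower. Those of the other 3 were lower too. With vehicle and with osimertinib, LAMB3 had means of 97.5 and 47.2 CPM and C15orf48 of 11.3 and 7.66 CPM. SLC37A2, a low gene, had 1.21 and 0.268 CPM. For CDH2, with at most 9 counts in a library, a pseudocount of 2 CPM makes any profile nearly flat, and no similar genes are given. For CDH11 the nearest genes were OSBPL5, TMEM164, LRRC37A2, ZSWIM3, and B3GNT2, at 0.22 to 0.24, against its own mean deviation of 0.44. LRRC37A2 has near-identical copies that the counting could split, so its values are uncertain.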

How the data were processed

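Estimated counts per gene symbol were deposited by the authors, who aligned paired-end reads of ribosome-depleted, stranded total RNA to transcripts with Kallisto and summed them to genes with tximport (GRCh38). The submitters' processing notes name CASAVA 1.8.2, STAR 2.5.2b, and kallisto 0.43.0, without their roles. Kallisto divides reads shared between similar transcripts by estimation, so values of near-identical genes are uncertain. The estimated counts were rounded to whole numbers, with 0 columns of other samples in the table. Samples were grouped by their labels.

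Counts were tested with edgeR 4.0.16 in R 4.3.3 (TMM scaling, quasi-likelihood test, two-sided), for genes kept by filterByExpr (minimum count 10, minimum total 15). Benjamini-Hochberg adjustment ran over all genes of a fit, with a threshold of 0.05. H1975-OR against H1975 and 1,25(OH)2D3 against vehicle were fitted in 8 libraries, those the study kept for its gene set analysis. The osimertinib comparisons were fitted in the 11 libraries of H1975-OR without 3a, and the order of levels in 14. Scripts were tested on simulated data. Alternatives were DESeq2 1.42.0, RLE scaling, other filters, Sample 3a kept, the replicate block, other sets of libraries, and each library left out. The fits of letters b and c alone and of 1,25(OH)2D3 in 11 libraries were chosen after seeing the data. Intervals of 95% come from the fit, and a floor of 3 counts covers counting error only.

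The 9 genes and the lists were chosen with earlier results of these data known. Of each list, up to 4 genes with the lowest adjusted p under 0.05 were named, or up to 2 with the lowest p where none passed, and for CDH1 and CDH11 the 5 genes with the most similar profile; the rule also held CDH2, left out because its counts were too low. JUP, VASP, TWIST1, and TWIST2 were named outside this rule, after their values were seen. Deviations from the group means of libraries with the same letter correlated at 0.31, 0.12, and 0.20 for vehicle with osimertinib, 0.34, 0.12, and 0.18 for vehicle with both agents, and 0.46, 0.28, and 0.26 for osimertinib with both agents (letters a, b, and c, across genes). Each is over 0.1, but the labels state no pairing, and the main fits used no block for the letter. No correlation was computed between libraries of unlike letters, so these values cannot establish that the letters pair the groups. For 1,25(OH)2D3 with osimertinib, letter b was at 0.005 and letter c at 0.15.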

Additional observations from a re-analysis of the deposited data

Results flagged for a closer look

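Sample 3a, the 1,25(OH)2D3 library that had no part in the tests, lay above every vehicle-treated H1975-OR library in 4 of the 9 genes. Of the 17331 genes with a count in any library, 31.2% did the same, so nothing is read from the count of 4. It held CDH1 at 105.7 CPM, CTNND1 at 429 CPM, CDH13 at 1.43 CPM, and CDH4 at 0.952 CPM. The values of CDH13 and CDH4 rest on 9 and 6 counts.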

How the results depend on the processing

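Over all alternatives, 684 values of the 6 tested genes were recomputed. Of the 91 values of called genes, 77 kept the direction and the call, 14 lost the call, and 0 changed direction. Of the others, 553 kept their sign, 40 took the other sign, and 0 became called. Leaving out each library in turn gave between 1 and 2 called genes of the 6 for H1975-OR against H1975, between 0 and 1 for 1,25(OH)2D3, both agents against osimertinib, and both agents against vehicle, 0 for osimertinib and for the difference between the effects of 1,25(OH)2D3, and between 9 and 12 calls over the 10 pairs. In a fit of the 2 compared groups alone, both agents gave 0 called genes against osimertinib and 0 against vehicle. The cause was not tested. At this depth CDH2, CDH4, and CDH13 could not be compared.

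With the replicate block, 1,25(OH)2D3 gave 0 called genes of the 6 in 8 libraries (CDH1 log2 fold change 3.95, edgeR adjusted p = 0.133), whereas in the 11 H1975-OR libraries CDH1 was called without the block (edgeR adjusted p = 0.0024) and with it (4.53, edgeR adjusted p = 0.00049). Letters b and c correlated at 0.07 and 0.11 there, and H1975 with H1975-OR at −0.12 to 0.08, so the letters are not shown to pair these groups. With the block, CDH3 took the other sign for 1,25(OH)2D3 at −0.14 (−0.0622 in 11 libraries) and for the difference between the effects at 0.15, and CTNNB1 for that difference at −0.0297. The block changed no other call of the 6 genes in the 6 comparisons. In letters b and c alone, CDH3 was at −0.0685 for 1,25(OH)2D3, CTNNA1 at −0.54 for both agents against osimertinib, and CDH3 at 0.0832 and CTNNB1 at −0.0225 for the difference between the effects.

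With libraries left out, log2 values of uncalled genes crossed 0. For H1975-OR against H1975, CDH11 ranged from −0.28 to 0.18, CTNND1 from −0.21 to 0.14, and CTNNA1 from −0.0768 to 0.65. For 1,25(OH)2D3, CDH3 ranged from −0.0643 to 0.26, CTNNB1 from −0.34 to 0.0028, and CTNNA1 from −0.41 to 2.11. For osimertinib, CTNNB1 ranged from −0.0644 to 0.32 and CTNNA1 from −0.37 to 0.44. For both agents against osimertinib, CDH3 ranged from −0.17 to 0.32, CDH11 from −0.26 to 0.42, CTNNB1 from −0.19 to 0.0836, CTNND1 from −0.18 to 0.0116, and CTNNA1 from −0.27 to 0.65. For both agents against vehicle, CTNNB1 ranged from −0.10 to 0.24 and CTNNA1 from −0.16 to 0.60. For the difference between the effects, CDH3 ranged from −0.32 to 0.17, CTNNB1 from −0.0891 to 0.29, and CTNNA1 from −1.94 to 0.58.

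Counts over all genes moved by over 1.5 times in places. 1,25(OH)2D3 gave 19 genes, against 124 with DESeq2, 32 without the filter, 29 with at least 10 counts in every library or in 14 libraries, 12 and 48 in 11 libraries without and with the block, and 9 with the block or in the 2 groups alone. Osimertinib gave 6, against 117 with DESeq2, 12 in 14 libraries, 80 in letters b and c, and 2 in the 2 groups alone. Both agents against osimertinib gave 12, against 66 with DESeq2, 5 with Sample 3a, and 2 in the 2 groups alone. Both agents against vehicle gave 62, against 364 with DESeq2, 25 with Sample 3a, 98 in 14 libraries, 285 in letters b and c, and 8 in the 2 groups alone. H1975-OR against H1975 gave 2521, against 1636 with Sample 3a. Leaving out a library gave 1426 to 2835, 5 to 18, 1 to 29, 3 to 14, and 4 to 110 for H1975-OR against H1975, 1,25(OH)2D3, osimertinib, and both agents against osimertinib and against vehicle.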
